A study of Peromyscus maniculatus with 10 samples.

Results

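The genes described here were the very long genes of the deer mouse, those spanning at least 300 kb of a numbered chromosome from the first to the last annotated exon. They were chosen from the coordinates alone, whatever their expression, and numbered 414 of the 25394 genes in the table (1.63%), or 1.76% of the 23570 genes on the 23 numbered chromosomes. The levels came from RNA sequencing of primary fibroblasts grown from the ears of 10 male deer mice, Peromyscus maniculatus bairdii of the outbred BW stock, each 3 weeks old. There was 1 library per animal and 1 group, the labels named no treatment of the cultures, and each library is called here by the number of its animal. Since there was no second group, the comparisons were those between the very long genes and the rest of the genes within each animal, and those among animals.

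A gene of this size is nearly all intron. RNA polymerase must copy the whole of it to make 1 transcript, which for the largest genes takes many hours, and the introns are then spliced out. In mammals such genes are known for cell adhesion, synapse and extracellular matrix proteins, dystrophin among them. Many are used mainly by neurons and muscle, several of them lie in common fragile sites, and their transcription is known to be sensitive to the loss of topoisomerase activity. None of this was measured here, and the table names genes by Ensembl identifier only. None of the identifiers could be paired with a symbol (0 of 25394), so that roles of single genes cannot be given, and the labelled cell type could not be checked against its markers.

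In structure, the very long genes differed from one another by over an order of magnitude. Spans ran from 300294 bases to 5417745 bases, with a median of 424713, and 36 genes spanned 1 Mb or more. The median gene had 18 exons after overlapping exons were merged (range 2 to 186), 2864 bases of exon, and introns over 99.4% of its span. The largest intron had a median length of 156074 bases and took up 33.4% of the span at the median. It was the first intron in 151 of the 409 genes with at least 3 introns (36.9%), a share between those of genes of 100 to 300 kb (40.0%) and of other genes with introns (34.9%). Another gene lay wholly inside 176 of the 414 (42.5%), against 315 of the 1407 genes of 100 to 300 kb (22.4%). An exon of 5 very long genes overlapped an exon of another gene, on the opposite strand in 4 of them, and 198 of the 414 were on the plus strand. Chromosome 3 held the most of them by number, 37 of its 1497 genes (2.47%). By share, chromosome 16 was highest, at 3.46% of its 434 genes, and chromosome 4 lowest, at 0.801% of its 1872 genes.

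At the edge of the definition, the 3 shortest genes included were ENSPEMG00000018385 (300294 bases, mean count 2.5), ENSPEMG00000019323 (300628 bases, mean count 147.5) and ENSPEMG00000005268 (301343 bases, mean count 7725). The 3 longest left out were ENSPEMG00000016350 (299703 bases, mean count 1300), ENSPEMG00000021308 (298916 bases, mean count 2209) and ENSPEMG00000019999 (298426 bases, mean count 88.1). Both sides of the limit thus held genes of low and of high count.

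The libraries held 20811334 to 31912526 counts, and a count of 3 in a library corresponded to 0.0940 to 0.144 CPM, the unit of counts scaled by library size. Libraries #36764 and #36789 stood apart from the other 8 over all genes, being the highest or the lowest library for a larger share of genes than most, so results are given with and without them where they bear on a value. No pair of libraries agreed within counting error, the chi-square per degree of freedom being 23.0 or more for every pair. Exact p-values over the 10 animals describe how these genes behaved across animals, while genes are not replicates. In a bulk culture, fewer cells expressing a gene and less RNA of it per cell cannot be told apart.

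Most very long genes were detected. A gene was called expressed here at a mean count of 10 or more over the libraries, which was reached by 279 of the 414 (67.4%), beside 56.6% of all genes on numbered chromosomes. A count in every library was found for 326 (78.7%, beside 61.3% of all). Only 2 genes, ENSPEMG00000017295 and ENSPEMG00000001103, had no count in any library (0.483%, beside 17.2% of all). At the upper end the order turned, and 80 very long genes had a mean count of 1000 or more (19.3%, beside 22.3% of all).

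Counted in each animal, at least 1 read was found for 91.7% ± 1.36 of the very long genes and for 70.2% ± 0.681 of the other genes (SD, n = 10). The difference of 21.5 ± 1.33 percentage points held in 10 of 10 animals (exact sign-flip permutation test, two-sided, adjusted p = 0.0026 over 4 tests). For at least 10 counts the shares were 66.2% ± 2.23 and 55.8% ± 0.355, a difference of 10.4 ± 2.20 points in 10 of 10 animals (exact, adjusted p = 0.0026). Library #36789, the smallest, had the lowest share of very long genes with at least 10 counts, 61.1%, and the highest was 69.3%. Genes of 100 to 300 kb reached 10 counts more often than the very long genes, at 77.5% ± 0.832, which was 11.3 ± 1.51 points more in 10 of 10 animals (exact, adjusted p = 0.0026). At 1 count, too, the very long genes were 1.08 points below genes of 100 to 300 kb (exact, adjusted p = 0.0137), which was not stable under other settings. The other genes include 8216 genes under 3 kb, with a median exonic length of 381 bases, of which 27.4% were expressed. Higher detection than all other genes is thus not particular to very long genes. For genes of at least 500 kb the comparison with all other genes turned around, to 2.91 points fewer with at least 10 counts (exact p = 0.0391). The comparisons of detection were added after the data were seen.

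Many very long genes sat between silence and clear expression. A mean count from 1 to under 10 was found for 106 of them (25.6%), while 12.6% of the other genes had such a count. A mean count from 10 to under 100 was found for 90 (21.7%, against 11.1%). Counts of 5000 or more were reached by 12 (2.90%, against 3.96%).

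Per length, the very long genes were the lowest class by span. The median level of the 279 expressed ones, in log2 RPKM (CPM divided by the exonic length in kb), was lowest at 1.53 in animal #36789, had a median of 2.03 over the animals and was highest at 2.24 in animal #36907. The other expressed genes varied little among animals, from 4.13 to 4.19, which is largely built in because most expressed genes set the library scaling. Expressed genes of 100 to 300 kb ran from 3.38 to 3.51. No animal's value for the very long genes overlapped those of the other genes.

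On average the very long genes had a median level of 1.99 ± 0.23 and the others of 4.14 ± 0.02 (SD, n = 10). The difference was −2.15 ± 0.24 on the log2 scale, 4.43-fold lower, and lower in 10 of 10 animals (exact sign-flip permutation test, two-sided, p = 0.00195, the smallest this design gives). Against the 1105 expressed genes of 100 to 300 kb, at 3.43 ± 0.04, the difference was −1.43 ± 0.23, lower in 10 of 10 animals (exact p = 0.00195). The size of the difference depended on the limit for an expressed gene: against all other genes it was −1.37 both with a mean count of 100 or more and with no limit, and against genes of 100 to 300 kb it was −0.60 and −3.42. It also depended on the division by exonic length. The median exonic length was 2864 bases for all very long genes, 2514 for genes of 100 to 300 kb and 969 for other genes. In log2 CPM with no division by length the differences were −1.19 from other genes and −1.39 from genes of 100 to 300 kb. Among genes of 1 to 5 kb of exonic length they were −1.83 and −1.36 in log2 RPKM. Without animals #36764 and #36789 the differences were −2.06 and −1.34 (both exact p = 0.00781).

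The level per exonic length fell with each step in span above 10 kb. In bands of span, whose limits were chosen after the data were seen, the median log2 RPKM of expressed genes was 4.41 ± 0.02 at 10 to 30 kb, 4.07 ± 0.02 at 30 to 100 kb and 3.43 ± 0.04 at 100 to 300 kb. It was 2.47 ± 0.32 for the 199 expressed genes of 300 to 500 kb, 1.33 ± 0.24 for the 64 of 500 kb to 1 Mb and 0.33 ± 0.32 for the 16 of 1 Mb or more. Without division by length, the median log2 CPM rose from 4.86 at 10 to 30 kb to 5.10 at 30 to 100 kb, and only then fell, to 4.80 at 100 to 300 kb and to 3.85, 2.39 and 1.63 in the 3 bands of very long genes.

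Each of these steps in log2 RPKM was downward in 10 of 10 animals. The step into the 300 to 500 kb band was 1.93-fold, that from there to 500 kb to 1 Mb was 2.20-fold, and that into 1 Mb or more was 2.01-fold (exact sign-flip permutation tests, adjusted p = 0.00195 over 7 steps). With no limit on counts, the step from 300 to 500 kb into 500 kb to 1 Mb grew from −1.14 to −2.74 on the log2 scale. The last step rested on 16 genes and shrank from −1.01 to −0.37 on that scale with a mean count of 100 or more and to −0.40 with no limit. The share of genes that were expressed first rose, from 74.6% at 10 to 30 kb to 79.6% at 30 to 100 kb. It then fell to 78.5% of genes of 100 to 300 kb and to 74.8% of those of 300 to 500 kb, near the share at 10 to 30 kb. Beyond that it was 57.1% of those of 500 kb to 1 Mb and 44.4% of those of 1 Mb or more.

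**Figure D1:**
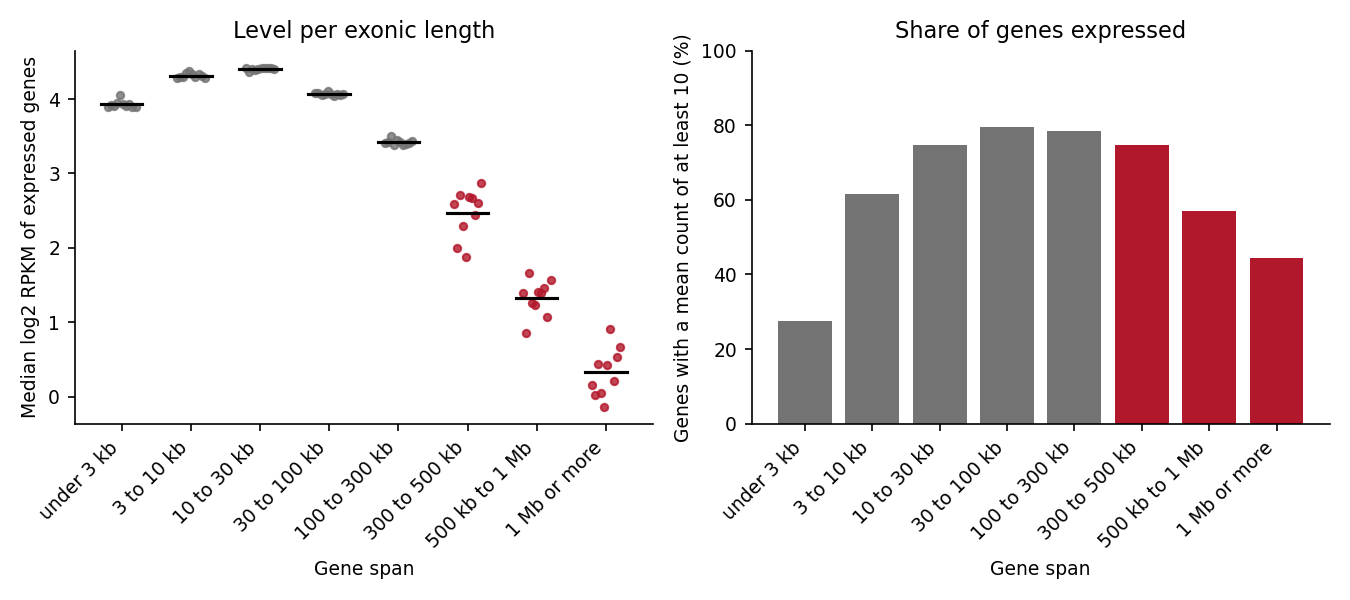
Left, median log2 RPKM of expressed genes (vertical axis) in each band of gene span (horizontal axis), with 1 point per animal and a line at the mean of the 10 animals. Right, bars from 0 for the percentage of genes in each band with a mean count of 10 or more. The red bands are the very long genes, where the median fell from 2.47 to 0.33 and the share expressed from 74.8% to 44.4%.

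Within the class the relation to span was loose. Over the 279 expressed genes, Spearman's rho of span with mean log2 RPKM was −0.24, and −0.26 to −0.20 in single animals. The number of exons gave −0.21 and the exonic length −0.23. These are descriptions across genes that share the same 10 libraries, and span, exon number and exonic length are not independent of each other. Genes at the same span differed by far more than the trend, as the plot of level against span shows.

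**Figure D2:**
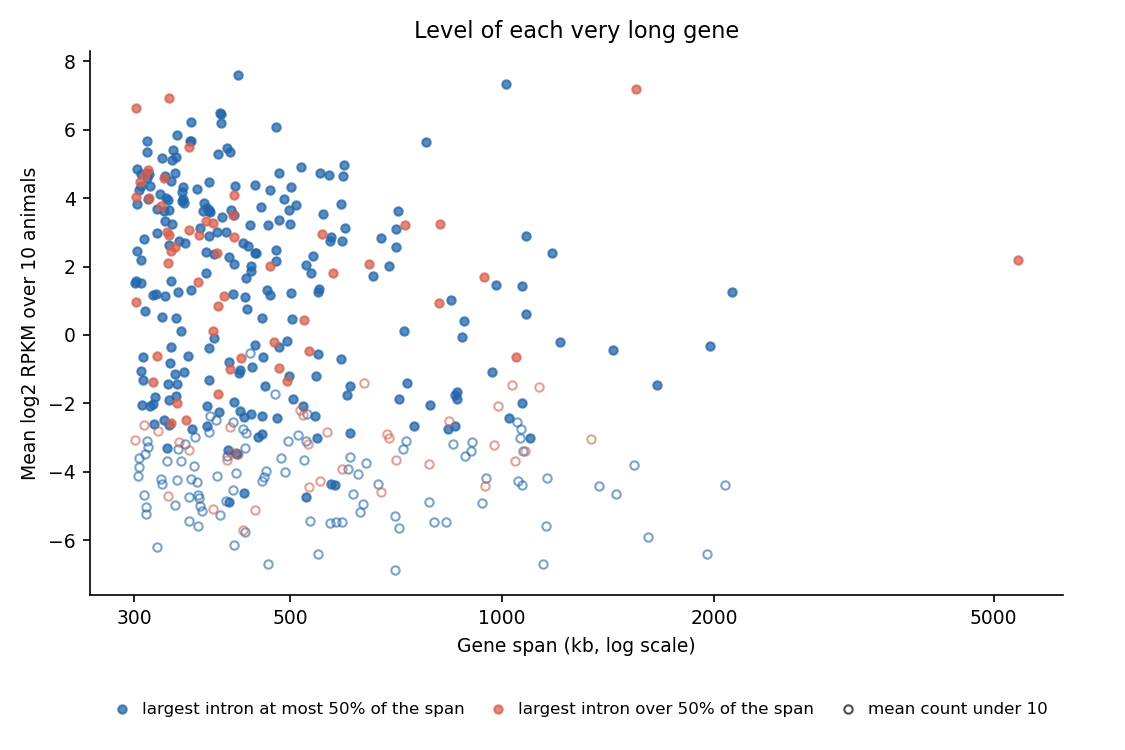
Mean log2 RPKM over the 10 animals (vertical axis) against gene span in kb on a log scale (horizontal axis) for the 414 very long genes, with filled points for a mean count of 10 or more and open points below it. Red points have a largest intron of over 50% of the span, and the highest point is ENSPEMG00000010240 at 7.58.

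Together the very long genes received 1.12% ± 0.07 of all counts (SD, n = 10), from 1.03% to 1.24%, with the highest share in animal #36764. The 1407 genes of 100 to 300 kb received 8.32% ± 0.32. Of the counts on very long genes, 0.881% of the library fell on those of 300 to 500 kb, 0.175% on those of 500 kb to 1 Mb and 0.0622% on those of 1 Mb or more. The 10 genes with the most counts held 32.6% of the class's counts (26.9% to 41.2% by animal) and the top 50 held 71.7%. A small part of the class thus held most of its counts.

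The highest level per length was that of ENSPEMG00000010240, a gene of 24 exons on chromosome 3 (41697506 to 42118132, plus strand, HU_Pman_2.1). Its counts were 11012 at the lowest, 13894 at the median and 17480 at the highest, and its mean log2 RPKM was 7.58, which placed it in the top 5.14% of all expressed genes. Its level barely varied, with a standard deviation of 0.10 on the log2 scale over the 10 animals and a highest level 1.27 times the lowest. Its mean count over the libraries, 14470, was the highest of the class, and it took 4.70% of the class's counts, although in #36764 ENSPEMG00000023321 had more, 25818 against 16674.

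A pair of genes spanning over 1 Mb came next by level. ENSPEMG00000019421, which spanned 1.01 Mb of chromosome 5 (47136991 to 48149229, plus strand), had counts of 6218, 9129 and 15260 at the lowest, median and highest and a mean log2 RPKM of 7.32. It was highest in animals #36764 and #36746 and lowest in #36797 and #36907, a 2.20-fold range. ENSPEMG00000003700, of 1.55 Mb on chromosome 11 (86845015 to 88396285, minus strand), had counts of 2868, 5627 and 7279 and a mean log2 RPKM of 7.18. It was lowest in #36789 and #36764 and highest in #36772 and #36905. Of its span 89.6% was 1 intron of 1390143 bases. These were the only 2 genes of 1 Mb or more with a mean count of 1000 or more, out of 36.

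The next by level were 5 genes of 301 to 399 kb. ENSPEMG00000001825 (chromosome 7, 42348779 to 42684724, plus strand) had a mean log2 RPKM of 6.92, with counts from 3134 to 7634. Its largest intron took up 79.2% of the span. ENSPEMG00000005268 (chromosome 7, 44463193 to 44764535, minus strand) had a mean log2 RPKM of 6.64, with counts of 4245, 7131 and 19979 at the lowest, median and highest. Animal #36764 stood alone at the top for this gene, 1.17 above the next animal on the log2 scale, and #36798 and #36907 were lowest.

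ENSPEMG00000023321 (chromosome 17, 11320050 to 11717039, plus strand) reached 6.48, with counts of 4284, 11230 and 25818. It too was highest in #36764, and lowest in #36789 and #36746, a 4.59-fold range of level. ENSPEMG00000016755 (chromosome 5, 69369034 to 69767725, minus strand) reached 6.46 with counts from 2355 to 5543, and ENSPEMG00000018237 (chromosome 17, 34382408 to 34743572, plus strand) reached 6.21 with counts from 5908 to 13363. Of the 8 genes with the highest level, 5 were highest in animal #36764. This animal was highest for 20.4% of all expressed very long genes and for 19.1% of other genes. The share among other genes of such high level was not computed, so no pattern is drawn from these 8.

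The 5 longest genes covered the whole range from silence to moderate expression. The longest, ENSPEMG00000010143 on chromosome 16 (54311060 to 59728804, minus strand), spanned 5.42 Mb, of which 99.4% was 1 intron of 5387187 bases with 35 other genes wholly inside. Its counts were nonetheless steady, at 338, 395.5 and 604 for the lowest, median and highest library, with a mean log2 RPKM of 2.18. An intron that holds 35 genes is a feature of the annotation that was taken as given, and its existence in the transcript was not tested.

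ENSPEMG00000030749, of 2.12 Mb on chromosome 12 (26089664 to 28209495, plus strand), had counts of 22, 81.5 and 295 and a mean log2 RPKM of 1.27. It was lowest in #36789 and #36764 and highest in #36798 and #36907, an 8.87-fold range. ENSPEMG00000003674, of 1.97 Mb on chromosome 4 (114578356 to 116550530, plus strand), had counts of 30 to 37 in 9 animals and 16 in #36764.

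The other two of the longest were near silence. ENSPEMG00000025213 (2.08 Mb, chromosome 3, 57883730 to 59961037, plus strand) had 1 to 7 counts per library, and ENSPEMG00000019442 (1.96 Mb, chromosome 4, 18745425 to 20702502, minus strand) had 1 to 7 counts over 92 exons. The latter also shared exon sequence with another gene on the same strand, so its few counts are uncertain. ENSPEMG00000027203 had the most genes inside, 40 within 0.840 Mb of chromosome 18, and a mean count of 0.2. It was named after its values were seen.

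Genes with 1 dominant intron, over 50% of the span, numbered 87 of the 414 (21.0%). Of these, 52 were expressed (59.8%), against 227 of the other 327 (69.4%), and they received 14.5% of the class's counts. They had fewer exons, 11 against 22 at the median. Their median log2 RPKM was 2.23 ± 0.20 against 1.86 ± 0.27, higher by 0.37 ± 0.22 in 10 of 10 animals (exact p = 0.00195). This direction was not stable: the difference was −0.40 with a mean count of 100 or more (exact p = 0.00391), −0.10 with no limit (exact p = 0.541) and −0.20 in log2 CPM with no division by length (exact p = 0.041). The contrast was added after the data were seen.

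The very long genes differed between animals more than other genes of the same count. Spread was measured as the standard deviation over the 10 animals of log2 CPM, which needs no length. Among genes with a mean count of 1000 or more, where counting error is near 2.1%, the median standard deviation was 0.35 for 80 very long genes, 0.21 for 483 genes of 100 to 300 kb and 0.15 for all 5173 other genes. The median counts of the 3 sets were close, at 2177, 2231 and 2175. The biological coefficient of variation in edgeR was 23.9%, 16.4% and 13.4% at the median.

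The same order was found at lower counts. It was 0.40, 0.34 and 0.22 for mean counts from 100 to under 1000 and 0.76, 0.59 and 0.53 from 10 to under 100. In both ranges the very long genes had somewhat lower counts, with medians of 373, 443 and 440 in the first and 26.5, 29.8 and 30.3 in the second. Over all expressed genes it was 0.51, 0.32 and 0.23. There the sets were not matched by count, the median counts being 328, 780 and 676, so counting error differed between them. The median absolute deviation of a gene from its own mean was larger for the very long genes than for other genes by 0.16 in all expressed genes, and by 0.11, 0.12 and 0.14 in the 3 ranges of count in rising order (exact sign-flip permutation tests, adjusted p = 0.0026, 0.0039, 0.0026 and 0.0026 over 4 tests). It was larger in 10 of 10 animals, except for counts of 10 to under 100, where it was 9 of 10.

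Against genes of 100 to 300 kb the difference was 0.11 over all expressed genes and 0.07, 0.05 and 0.10 in the 3 ranges, larger in 10 of 10 animals (exact, adjusted p = 0.00195 for each). This second comparison was added after the data were seen. Deviations of 1 gene in the 10 animals sum to 0, so the animals are not fully independent in these tests. Without #36764 and #36789 the differences from other genes were 0.12 over all expressed genes and 0.12, 0.07 and 0.08 in the 3 ranges (exact p = 0.00781).

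**Figure D3:**
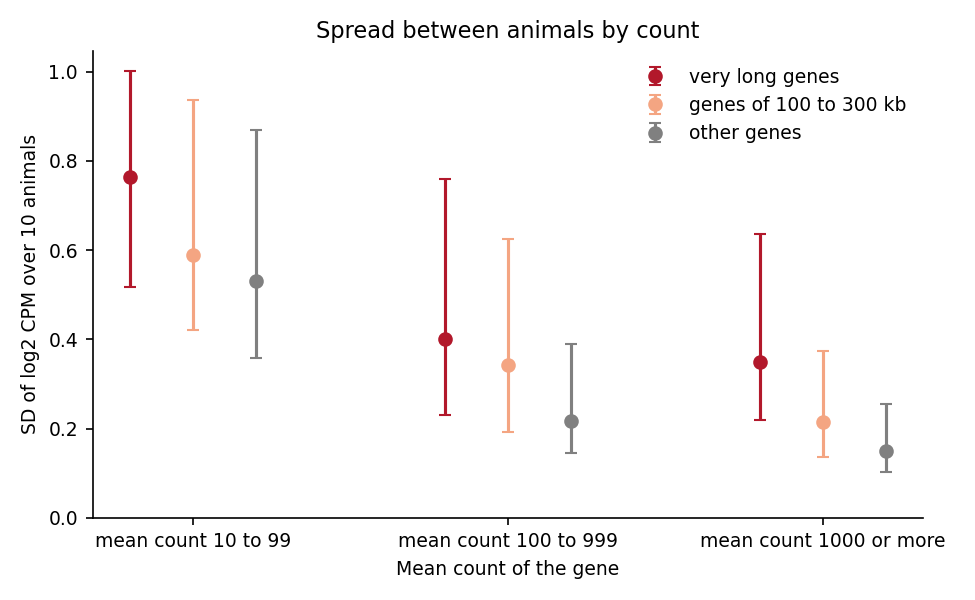
Standard deviation of log2 CPM over the 10 animals (vertical axis) for genes in 3 ranges of mean count (horizontal axis). Points are medians over genes and bars run from the lower to the upper quartile. The very long genes (dark red) lie above the genes of 100 to 300 kb and the other genes in each range, at 0.35 against 0.21 and 0.15 for counts of 1000 or more.

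Put as folds, the highest animal exceeded the lowest by 2.14-fold at the median for the 80 very long genes with a mean count of 1000 or more, by 1.60-fold for genes of 100 to 300 kb and by 1.39-fold for other genes. A range of 4-fold or more was found in 22 of the 80 (27.5%), in 10.6% of genes of 100 to 300 kb and in 5.97% of other genes. A standard deviation of at least 0.5 was found in 27 of the 80 (33.8%), beside 8.99% of all genes with such counts. Of those 27 genes, 18 were lowest in #36764 or #36789 (66.7%, against 55.9% of such genes of 100 to 300 kb and 44.7% of such other genes). In the same animals 11 were highest (40.7%, against 41.2% and 45.2%), which is no more than in the other sets. Without these animals 16 of the 80 passed, a share of 20% against 9.73% of genes of 100 to 300 kb and 6.03% of other genes. The limits of 4-fold and 0.5 were chosen after the data were seen.

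The most variable very long gene was ENSPEMG00000020103, of 0.331 Mb on chromosome 11 (73557687 to 73888569, minus strand). It had 2 counts in #36789 and 135 in #36764, and from 602 to 2802 in the other 8 animals, highest in #36772. Its standard deviation was 2.72 on the log2 scale. On that scale #36789 lay 4.87 below the next animal.

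ENSPEMG00000025597 (0.319 Mb, chromosome 10, 60133277 to 60452410, plus strand) ranged from 14 counts in #36789 and 30 in #36764 to 756 in #36772 and 797 in #36907, with a median of 327.5. ENSPEMG00000013197 (0.468 Mb, chromosome 7, 12272463 to 12740671, minus strand) ranged from 104 in #36789 and 220 in #36764 to 4755 in #36907, with a median of 680. These 3 genes lay on different chromosomes and shared their lowest animals, #36789 and then #36764.

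ENSPEMG00000022891, of 1.05 Mb on chromosome 17 (38484933 to 39530454, plus strand), went the other way. It had 758 counts in #36764, 11 to 75 in the other 9 animals and a median of 54. Its mean count of 114 passed the limit of 100 for this list only through #36764, the same animal that made it variable. #36764 lay 3.15 above the next animal on the log2 scale, and #36798 was lowest. A largest intron of 846907 bases took up 81.0% of this gene.

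The least variable genes with a mean count of 100 or more were nearly level across the animals. ENSPEMG00000017853 (0.352 Mb, chromosome 8, 108039468 to 108391567, minus strand) had counts from 1378 to 2005 and a standard deviation of 0.05, the highest animal being 1.11 times the lowest. ENSPEMG00000019785 (0.482 Mb, chromosome 20, 38755156 to 39237624, minus strand) had a standard deviation of 0.07, and ENSPEMG00000008950 (0.375 Mb, chromosome 16, 52646094 to 53021418, plus strand) of 0.08. Between animals, the level of ENSPEMG00000017853 thus differed by 1.11-fold, while that of ENSPEMG00000013197, with a mean count of 1481, differed by 30.9-fold.

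**Figure D4:**
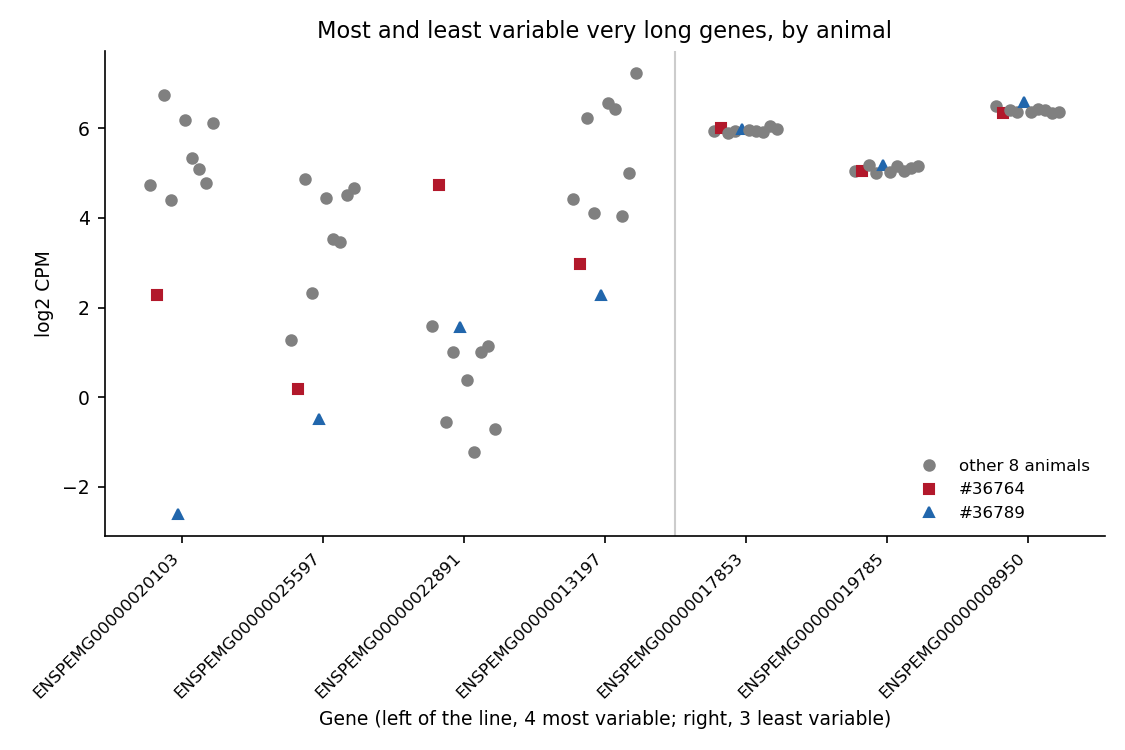
Level in log2 CPM (vertical axis) of the 4 most and the 3 least variable very long genes (horizontal axis), with 1 point per animal. Animal #36789 (triangles) is lowest for ENSPEMG00000020103, ENSPEMG00000025597 and ENSPEMG00000013197. Animal #36764 (squares) is far above the rest for ENSPEMG00000022891, and only through this animal did that gene reach a mean count of 100.

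A single animal set the range in few genes. By Dixon's test at its 95% critical value (0.466 for 10 animals), 35 of the 279 expressed very long genes had 1 animal outlying (12.5%, beside 9.75% of all expressed genes). Of the 35, 18 were outlying in #36764 and 15 in #36789, with 1 each in #36797 and #36906. The first of these libraries held 51.4% of the outlying very long genes and 48.1% of the outlying other genes, and the second 42.9% and 32.5%. Without #36764 and #36789 the count was 14, beside 4.95% of all. A gap of 3 or more in log2 units, or 8-fold, was found in 2 genes, ENSPEMG00000020103 and ENSPEMG00000022891 (0.717%, beside 0.802% of all). A share this near that of all genes says nothing particular about very long genes.

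The same 2 animals took the extremes of many other very long genes. Animal #36764 was the highest for 57 of the 279 expressed genes (20.4%) and the lowest for 68 (24.4%), near the shares among other genes, 19.1% and 20.6%. Animal #36789 was the lowest for 66 (23.7%) and the highest for 35 (12.5%). Among other genes, #36789 was the lowest for 15.5% and the highest for 17.4%. Animal #36907 was the highest for 47 very long genes (16.8%, against 11.1% of other genes).

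**Figure D5:**
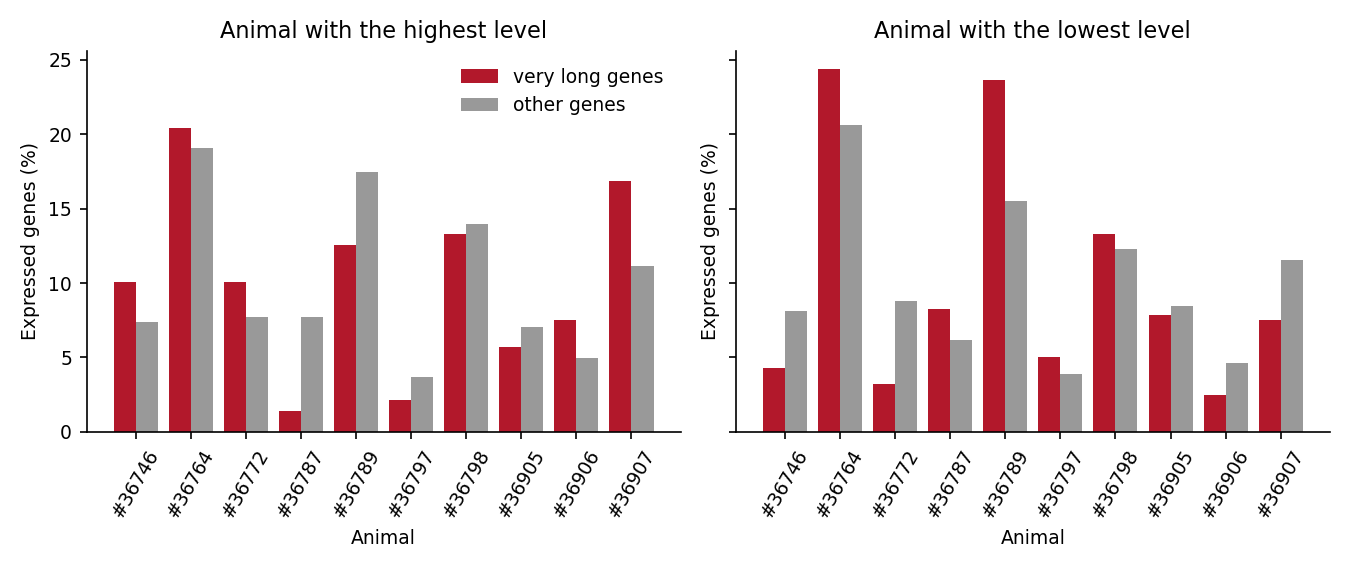
Percentage of expressed genes (vertical axis) for which each animal (horizontal axis) had the highest level (left) or the lowest (right), with bars from 0 for the 279 very long genes and for the other genes. Animals #36764 and #36789 have the lowest level in 24.4% and 23.7% of the very long genes.

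Centred on each gene's own mean, the median very long gene was lowest in animal #36789, at −0.15 on the log2 scale, then in #36787 at −0.12 and #36764 at −0.09. It was highest in #36772, at 0.14. The median of other genes stayed within 0.01 of 0 in each animal. The shift of the very long genes was set against 2 properties of the library over the 10 animals. With the library total, Pearson's r was 0.29 (permutation p = 0.409) and Spearman's rho 0.18 (permutation p = 0.634). With the share of counts on the 10 most abundant genes, r was 0.27 (permutation p = 0.462) and rho 0.50 (permutation p = 0.142), and no adjusted p over the 4 tests was below 0.568.

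These relations rested on single animals. Without the pair farthest from the median of the library measure, r became −0.30 with the total and 0.57 with the share of the 10 most abundant genes. Without #36764 alone, r with that share was 0.76 and rho 0.80 (permutation tests, adjusted p = 0.0347), so leaving out this animal changed which side of the threshold the relation was on.

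The very long genes did not move as a block. The mean correlation between pairs of them on different chromosomes was 0.05 over the 10 animals (jackknife standard error 0.02 over animals), against 0.01 for genes of 100 to 300 kb and near 0 for other genes. Among the 80 with a mean count of 1000 or more, the first principal component held 48.2% of the variance, against 42.0% for genes of 100 to 300 kb and 34.8% for other genes, the number of genes differing between the sets. On it, 15 of the 80 had a correlation of at least 0.8 and 14 of −0.8 or below, together 36.2% of the set, against 30.8% of genes of 100 to 300 kb and 21.7% of other genes. The animals at its ends were #36798 and #36907 on one side and #36789 and #36764 on the other, and they were the same in all 3 sets. These figures are descriptions with no test.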

How the data were processed

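The deposited values were raw read counts per gene, whole numbers made by the authors from directional total RNA libraries. Per the labels and the file header, reads were checked with FastQC 0.11.5, trimmed with Trim Galore 0.4.5, aligned with STAR 2.7.2b, handled with SAMtools 1.5 and counted on Ensembl release 98 gene models (HU_Pman_2.1) with featureCounts 1.5.3. Counting by exon means that intronic reads were not counted, and reads shared with near-identical copies could not be assigned. The totals of 20811334 to 31912526 counts set the counting error. Every sample column was assigned to its animal, with 0 left unassigned.

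TMM scaling factors and the biological coefficient of variation came from edgeR 4.0.16 (R 4.3.3). With these factors and 2 as the prior count, log2 CPM were computed in Python by edgeR's formula. From them, log2 RPKM were obtained by subtracting log2 of the exonic length in kb. Genes needed a mean count of 10 unless stated. Medians per animal were compared by exact two-sided sign-flip permutation tests over 1024 sign assignments, correlations by 100000 permutations, and adjusted p-values are Benjamini-Hochberg. These used Python 3.11.15 with numpy 2.4.6, scipy 1.17.1 and pandas 2.3.3. The code was tested on simulated data.

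Named genes were the 8 with the highest level, the 5 longest, the 3 on each side of the limit, the 4 most and 3 least variable at a mean count of 100 or more, and those with a gap of at least 3. The members, lists and thresholds were chosen with earlier results of these data known. Alternatives were DESeq2 1.42.0 size factors, totals without TMM, other prior counts, limits and spans, and leaving out animals. Replicates are animals, though nothing says whether cultures were handled on one day. Symbols and sequences were not used here, because none of the 37364 genes in the RefSeq table carried an Ensembl identifier.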

Additional observations from a re-analysis of the deposited data

Results flagged for a closer look

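Of 32 values followed over the 10 animals, 6 had an animal far from the other 9 by Dixon's test at 95%, where chance gives about 1 in 20. Over all expressed genes in these data the share was 9.75%. Most of the named genes had been picked for level, length or spread, so the 6 are not read as an excess. The share of very long genes with at least 10 counts was lowest in #36789, at 61.1%, the library with the fewest counts. The log2 CPM of ENSPEMG00000005268 was highest in #36764, at 9.46. The log2 CPM of ENSPEMG00000003674 was lowest in #36764, at −0.65, and so was that of ENSPEMG00000019323, at 1.65. The log2 CPM of ENSPEMG00000020103 was lowest in #36789, at −2.60, which rests on 2 counts, and that of ENSPEMG00000022891 was highest in #36764, at 4.74. The last pair had been named for such a gap, so that their presence here is no further evidence. All 6 were in #36764 or #36789, the libraries that stood apart over all genes, and the part these libraries play in each was not tested.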

How the results depend on the processing

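The lower level of the very long genes kept its direction and its side of the threshold under all 13 alternatives. It ran from −2.99 to −1.19 against other genes and from −3.42 to −0.60 against genes of 100 to 300 kb. Without each animal in turn it ran from −2.17 to −2.06 and from −1.46 to −1.35. The level was lower in 10 of 10 animals, so leaving out 1 could hardly change the direction or the p-value, and these runs only show the size. The larger spread also kept its direction and its side of the threshold under its 10 alternatives. It ran from 0.11 to 0.18 over all expressed genes, which were not matched by count. The level of genes with a dominant intron reversed, to −0.40 with a mean count of 100 or more, −0.10 with no limit and −0.20 without division by length. Detection at 10 counts against other genes reversed to −2.91 points at 500 kb. At 1 count the very long genes were 1.08 points below genes of 100 to 300 kb (exact p = 0.0137, adjusted over 4 tests 0.0137), which became 0.252 at 200 kb, −0.539 without dominant introns and −0.965 without #36764 and #36789. The share of counts became 1.23% without the 10 most abundant genes, 2.36% at 200 kb, 0.237% at 500 kb and 0.956% without dominant introns. The share expressed became 45.7% and 93.0% at mean counts of 100 and 1, 78.7% with a count in every library, 72.0% at 200 kb and 54.1% at 500 kb. Outlying genes numbered 20 at a mean count of 100, beside 9.08% of all expressed genes. They numbered 65 at 200 kb and 15 at 500 kb, both beside 9.75%, and 14 without #36764 and #36789, beside 4.95%. Genes with a gap of 3 numbered 4 with a prior count of 0.5, 1 at 500 kb and 1 without dominant introns. They numbered 0 without #36764 and #36789, and 8 with a gap of 2. The share of all genes is not given for these gap settings, so their counts are not read further. Without each animal in turn the genes with a gap of 3 numbered 1 to 3. The correlations with the share of the 10 most abundant genes then ran from −0.083 to 0.76 (Pearson) and from 0.28 to 0.80 (Spearman). The causes were not tested. Of 350 values of the 25 named genes, 347 stayed within 1 SD. Most of these values came from leaving out 1 animal, which cannot move a mean that far. The tally is therefore no measure of stability. The values that moved were those of ENSPEMG00000025213, ENSPEMG00000019442 and ENSPEMG00000018385 with a prior count of 0.5. No pairing of animals between groups was possible because there was 1 group, while gene classes were compared within each animal.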
